A study of Mus musculus with 12 samples.

Results

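Purkinje cells are the large GABAergic neurons of the cerebellar cortex, and their axons are the sole output of that cortex. The 10 genes followed here are markers or transcription factors of these cells: Pcp2, Gng13, Calb1, Car8, Ppp1r17, Slc1a6, Aldoc, Lhx1, Lhx5 and Foxp2. They were chosen by symbol from the 15759 entries of the normalized count table, by a rule that uses no measured value though earlier results of these data were known, and all 10 were found. Levels are normalized counts, that is, reads on a gene divided by the size factor of the library. A log2 fold change (LFC) is a difference in log2(normalized count + 1), so for genes with few counts it is smaller than the true change.

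Bulk RNA-seq was available for whole cerebellum and whole cortex of 2 genotypes, wild-type (WT) and SCA1 knock-in (SCA1 KI, genotype Atxn1 154Q/2Q), at 12 weeks of age, on a C57BL/6J background, with 3 libraries in each of 4 groups. The SCA1 KI mice carry 1 Atxn1 allele with 154 glutamines and 1 with 2 glutamines, and the expanded allele stays under its own regulatory elements, so it is not restricted to Purkinje cells. Sex is given as male in the labels, but the study's methods speak of both sexes. The cerebellar libraries had been published before the cortical ones, so region and data set cannot be told apart. No source used here says whether a library came from 1 animal, and p-values measure the spread between these libraries. Libraries are named by the number or letter of their column: WT cerebellum 2, 4 and 6, SCA1 KI cerebellum 1, 3 and 5, WT cortex B, C and D, and SCA1 KI cortex A, E and F.

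Library depth ran from 29520855 to 51311309 reads on genes. Atxn1, the altered gene, did not pass by genotype in the cerebellum (LFC 0.08, adjusted p = 0.837 from limma) or in the cortex (LFC −0.31, adjusted p = 0.132). Its counts do not measure repeat length. Several libraries stood apart. Granule cell markers summed to 173741 normalized counts in WT cerebellum library 2 and to between 239170 and 249965 in the other 5 cerebellar libraries. Library 2 also had the highest sum of midbrain and diencephalon markers, 14136 normalized counts. WT cortex library D held 42.1 normalized counts of Gabra6 and 108 of Cbln3, both granule cell genes, against at most 3.04 and 19.7 in the other cortical libraries. SCA1 KI cortex library F held 74.8 normalized counts of Irx2 and 22.5 of Barhl1, which were at most 3.94 and 0 in the other 5. WT cortex library B had 698 normalized counts of the striatal gene Adora2a, against 77.9 to 305 in the others.

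Climbing fiber and parallel fiber inputs evoke calcium signals in Purkinje cells, whose output is inhibitory. Many abundant transcripts of these cells encode calcium buffers, modulators of calcium release and parts of G-protein signaling. LIM homeodomain factors set up Purkinje cell identity in the embryo. Adult Purkinje cells fall into parasagittal stripes that do or do not stain for zebrin II, which is aldolase C. The cerebral cortex has no Purkinje cells, although some of these genes are used by its neurons and astrocytes.

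Promoter sequence was matched for 5 members, from RefSeq on GRCm38.p6, as windows of 250 bases before to 50 after a transcript start. Windows for Calb1, Car8, Ppp1r17, Lhx5 and Foxp2 were not in the table used. The 4 printed here belong to members with different patterns in the data: Pcp2 was nearly absent from the cortex, Gng13 and Aldoc were lower in the SCA1 KI cerebellum, and Slc1a6 went in opposite directions in the 2 regions. They lie at chr8:3625498-3625797 (minus strand), chr17:25716922-25717221 (plus), chr11:78322823-78323122 (plus) and chr10:78780246-78780545 (plus), in that order. Capitals mark a copy of AGGTCA, the half-site of nuclear receptors.
Pcp2: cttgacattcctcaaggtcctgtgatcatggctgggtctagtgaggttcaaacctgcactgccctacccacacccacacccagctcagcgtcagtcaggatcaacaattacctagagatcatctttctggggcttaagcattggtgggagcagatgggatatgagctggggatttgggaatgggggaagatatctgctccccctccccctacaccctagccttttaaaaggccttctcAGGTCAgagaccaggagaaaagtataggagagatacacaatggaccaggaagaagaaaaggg
Gng13: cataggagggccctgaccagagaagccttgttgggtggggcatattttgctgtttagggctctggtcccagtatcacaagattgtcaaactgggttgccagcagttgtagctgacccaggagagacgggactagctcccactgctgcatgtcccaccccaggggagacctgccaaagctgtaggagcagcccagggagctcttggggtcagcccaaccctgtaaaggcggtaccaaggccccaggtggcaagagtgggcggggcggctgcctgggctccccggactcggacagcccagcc
Aldoc: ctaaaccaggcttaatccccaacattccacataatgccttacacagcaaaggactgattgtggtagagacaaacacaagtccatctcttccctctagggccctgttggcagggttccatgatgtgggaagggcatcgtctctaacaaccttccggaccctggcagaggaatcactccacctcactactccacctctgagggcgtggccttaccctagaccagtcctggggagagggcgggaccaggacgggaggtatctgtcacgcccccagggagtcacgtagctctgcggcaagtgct
Slc1a6: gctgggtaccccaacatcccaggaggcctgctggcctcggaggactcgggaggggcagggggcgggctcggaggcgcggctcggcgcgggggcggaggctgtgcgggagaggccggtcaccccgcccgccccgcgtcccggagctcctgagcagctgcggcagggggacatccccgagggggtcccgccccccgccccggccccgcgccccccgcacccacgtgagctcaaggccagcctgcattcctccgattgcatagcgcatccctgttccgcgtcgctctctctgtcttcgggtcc

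The windows differed in base composition. GC content was 51.0% for Pcp2, 56.3% for Aldoc, 62.0% for Gng13 and 75.7% for Slc1a6, with 1, 8, 6 and 32 CpG dinucleotides. A search on both strands for AGGTCA, TGAATGAA and TGAATGGA (octamers of the ataxin-1 partner Capicua), TAATTA (a core of LIM homeodomain sites) and TATAAA found 1 match in these 4 windows, the AGGTCA at base 239 of the Pcp2 window. AGGTCA is present in 16.3% of the 32851 mouse promoter windows, TGAATGAA in 1.30%, TGAATGGA in 1.21%, TAATTA in 5.29% and TATAAA in 13.6%. Pcp2 had 4 windows. One around a start inside the gene, at chr8:3625233-3625532, held TGAATGGA at base 246, TAATTA at base 150 and TATAAA on the reverse strand at base 137, with no overlap between them. The windows at chr8:3625423-3625722 and chr8:3624987-3625286 each held 1 match, AGGTCA, at bases 164 and 225. The first of these is the copy in the printed window. The second windows of Gng13 and Aldoc and the window of Lhx1 held none of the 5 motifs. A match is a run of letters and not a binding site.

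All 10 members were higher in the WT cerebellum than in the WT cortex. The LFC between regions ranged from 0.79 for Foxp2 to 11.30 for Pcp2, with a median of 5.48, and each passed, which here means an absolute LFC over 0.25 and an adjusted p under 0.05 (limma, Benjamini-Hochberg over the 15369 genes whose mean reached 10 normalized counts). The background for that direction was 30.7% of all tested genes. The members fell into separate ranges. Pcp2 and Ppp1r17 had mean normalized counts of 10135 and 9838 in the WT cerebellum and of 9.88 and 13.4 in the WT cortex. Lhx1 and Lhx5 had 3 reads or fewer in every WT cortex library, a level taken as the floor, so their WT cerebellar means were at least 499-fold and at least 178-fold higher. Car8 was 93.5-fold and Slc1a6 20.9-fold higher in the WT cerebellum, by ratio of means. Calb1 (6.19-fold), Gng13 (4.52-fold), Aldoc (1.96-fold) and Foxp2 (1.67-fold) had sizeable cortical levels, so as bulk measures they were not restricted to the tissue that holds Purkinje cells. In SCA1 KI mice the same ratios of cerebellar to cortical means were 6.78 for Calb1, 2.40 for Gng13, 1.63 for Aldoc and 0.894 for Foxp2, and Pcp2, at the floor in the SCA1 KI cortex, was at least 2554-fold higher in the SCA1 KI cerebellum.

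**Figure D1:**
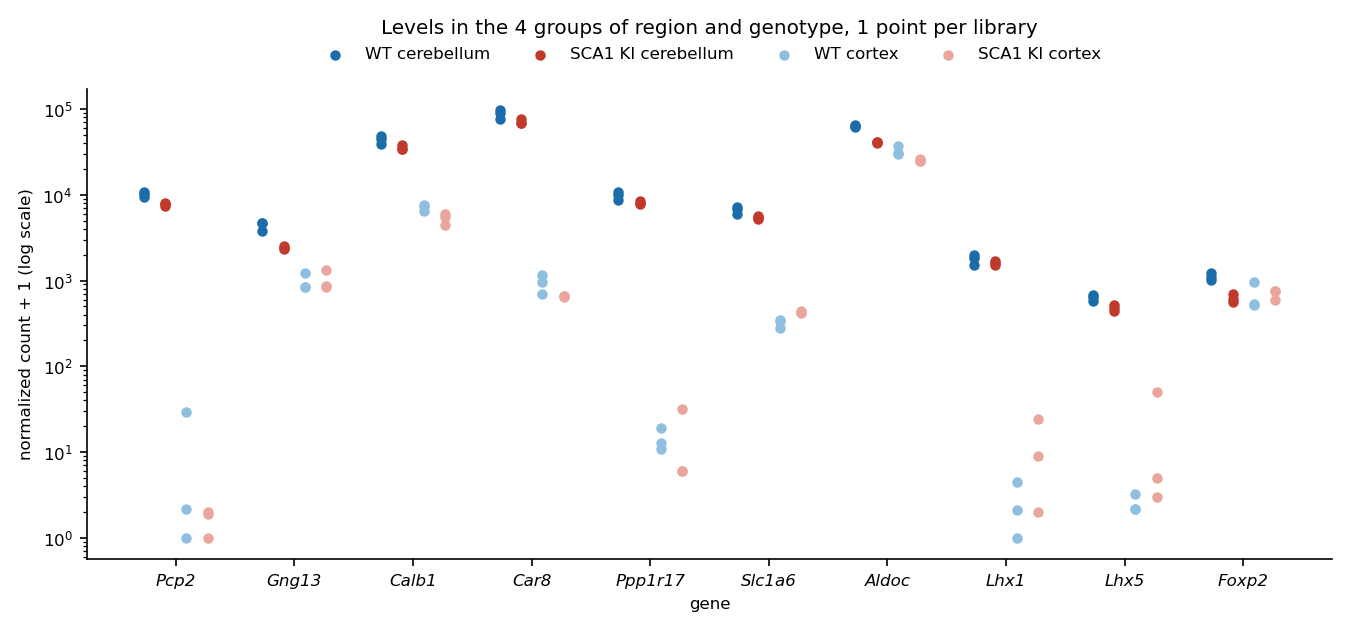
Normalized count + 1 of each member on a log scale, with 1 point per library and colors for the 4 groups of region and genotype. For 9 of the 10 genes both cerebellar groups lie above both cortical groups, and for Foxp2 (right) only the WT cerebellum does.

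Normalized counts per kilobase of merged exons allow a rough comparison of genes. The merged length counts every annotated exon, 16.3 kb for Foxp2 and 0.773 kb for Gng13, so it can understate genes with many exons. On this scale Car8 and Aldoc led in the WT cerebellum with 22772 and 19635. Together with Calb1 (9149 per kilobase) they stood well above the transcription factors Lhx1 (437), Lhx5 (236) and Foxp2 (68.1). Aldoc made up 27.2% of the members' summed level per kilobase in the WT cerebellum and 76.0% in the WT cortex, and the shares of Car8 were 31.5% and 1.84%. The order of the 4 groups was WT cerebellum, SCA1 KI cerebellum and then the cortical groups for 9 members, and in those 9 the SCA1 KI cerebellar libraries lay above every cortical library. Foxp2 was the exception. Its order was WT cerebellum, SCA1 KI cortex, WT cortex and SCA1 KI cerebellum, and its last 3 groups overlapped. The 2 cerebellar groups overlapped for Car8 and Lhx1, and the 2 cortical groups were apart for Calb1, Car8, Slc1a6 and Aldoc.

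In the cerebellum, the question is whether Purkinje transcripts differ in SCA1 KI mice at this age. Aldoc, Gng13 and Foxp2 passed as lower in SCA1 KI mice, and none of the 10 passed as higher. These 3 of 10 members compare with 4.44% of all tested genes that passed as lower, and the 0 of 10 with 0.917% that passed as higher. No member was higher at an unadjusted p under 0.05 either, nor with edgeR or DESeq2, while 5 were lower at that unadjusted level. At the same level, 2664 of the 15369 tested genes differed, counted in either direction. The median LFC over the members was −0.34, beside −0.0049 over all tested genes, and all 10 LFCs were negative. The 3 SCA1 KI libraries lay below the 3 WT libraries for 8 members (all but Car8 and Lhx1), and this held for 17.5% of all tested genes. In bulk tissue, fewer Purkinje cells and less RNA per cell cannot be told apart.

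**Figure D2:**
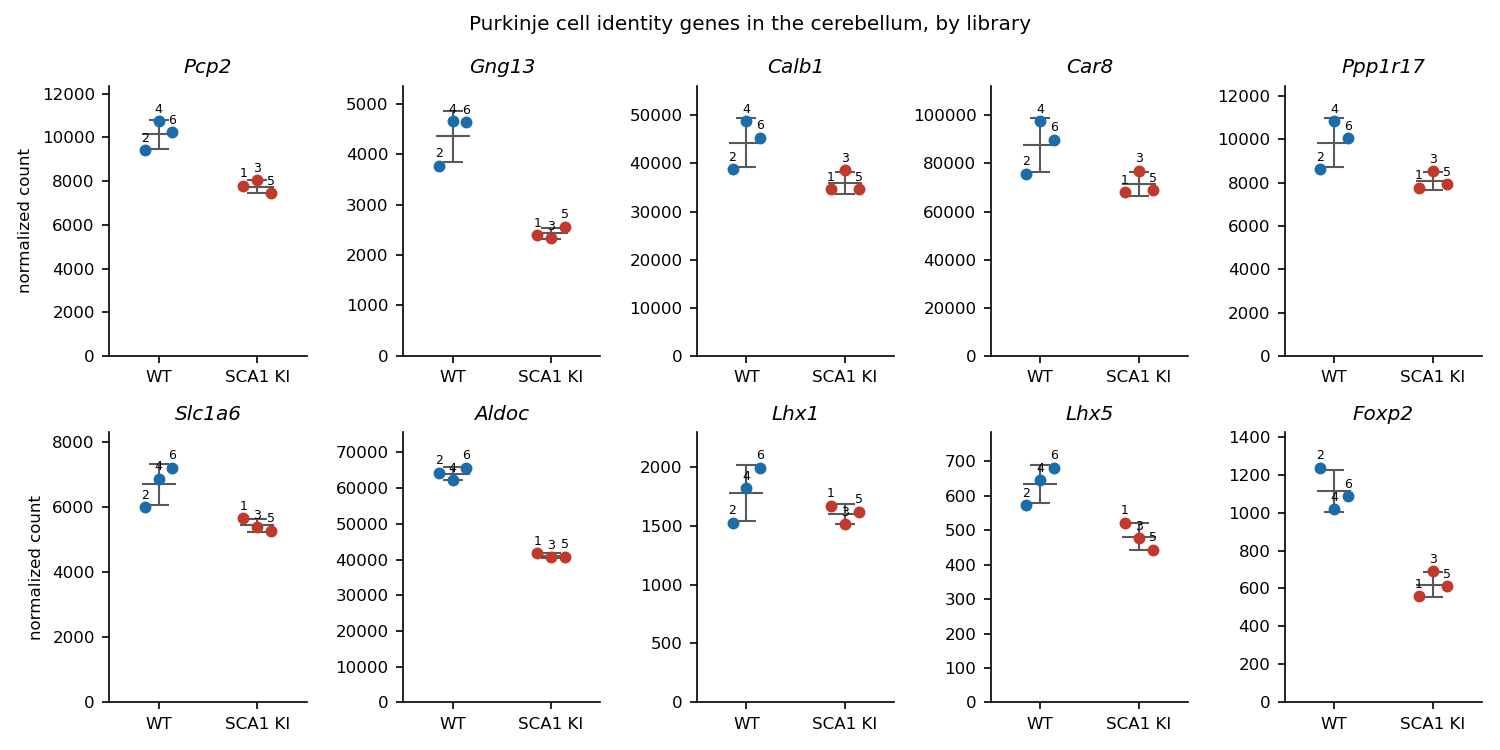
Normalized counts of the 10 members in the cerebellum, with each axis starting at 0. Points are libraries with their column number, and the bars are the mean and SD of 3 libraries per group. Aldoc, Gng13 and Foxp2 show the widest gaps, and library 2 is the lowest WT point for 8 of the 10 genes.

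Aldoc, at chr11:78322968-78327781 (GRCm38, plus strand), encodes the glycolytic enzyme aldolase C, the zebrin II antigen of Purkinje stripes that astrocytes also make. Its normalized counts were 64290, 62201 and 65716 in WT libraries 2, 4 and 6 and 41794, 40612 and 40833 in SCA1 KI libraries 1, 3 and 5. The groups were far apart for their spread (64069 ± 1768 against 41079.7 ± 628, SD, n = 3 each). The LFC was −0.64 (SE 0.076, adjusted p = 3.23e-04 from limma), and it passed under all 21 alternatives that kept the LFC limit of 0.25, but not with a limit of 1. Astrocyte and Bergmann glia markers are given beside it, since they share this gene's other source. Of 13 such markers, all had a negative LFC (median −0.27) and 2 passed, Aldh1l1 (−0.27) and the GABA transporter Slc6a11 (−1.48). Slc6a11 had 12038, 4708 and 7264 normalized counts in WT libraries 2, 4 and 6 and 2552 to 2850 in SCA1 KI libraries. Its highest value was in WT library 2, as for the summed midbrain and diencephalon markers. The summed level of the 13 astrocyte and Bergmann glia markers ran from 242866 to 271780 normalized counts in WT and from 221785 to 228825 in SCA1 KI libraries. The part of astrocytes in the Aldoc difference was not tested.

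Gng13, at chr17:25717171-25719406 (plus strand), encodes a G-protein gamma subunit, and its exons overlap those of Chtf18 on the other strand. WT libraries 2, 4 and 6 had 3771, 4655 and 4640.5 normalized counts, and SCA1 KI libraries 1, 3 and 5 had 2393, 2335 and 2561. Every SCA1 KI library was below every WT library. The LFC was −0.84 (SE 0.18, adjusted p = 0.0146 from limma), a 44.0% lower level whose 95% interval ran from −1.22 to −0.45 on the log2 scale. Leaving out SCA1 KI library 1 or 3 or WT library 6 ended the call (adjusted p = 0.0598, 0.0608 and 0.0591), with LFCs of −0.83, −0.81 and −0.79.

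Foxp2, at chr6:14901349-15441977 (plus strand), encodes a forkhead transcription factor that is also found in cerebellar nuclei, thalamus, striatum and deep cortical layers. It had 1236, 1017 and 1088 normalized counts in WT libraries 2, 4 and 6 and 559, 691 and 612 in SCA1 KI libraries 1, 3 and 5. The groups did not overlap, and the LFC was −0.84 (SE 0.20, adjusted p = 0.0242 from limma). Without WT library 2 the LFC was −0.77 and did not pass (adjusted p = 0.0953). It also did not pass without SCA1 KI library 1, SCA1 KI library 5 or WT library 6, with adjusted p of 0.108, 0.0773 and 0.0668. Some midbrain and diencephalon markers moved with it. Of 14 tested, 7 passed as lower in the SCA1 KI cerebellum and none as higher. Among the 7 were Tcf7l2 (LFC −3.09), Slc17a6 (−1.91) and Pou4f1 (−3.59). LFCs were negative for 11 of the 14. Barhl1, Barhl2 and Otx2 had higher SCA1 KI means, and Barhl2 went from 1469 in WT to 1935. The list summed to 14136, 9214 and 11022 normalized counts in WT libraries 2, 4 and 6, the same order as Foxp2. Slc17a6 alone had 6803, 2878 and 3911 in those WT libraries. In the SCA1 KI libraries the list summed to 5544 to 6264. Shox2 was at 0 in SCA1 KI library 3 and at most 9.68 in the other SCA1 KI libraries, against 120 to 210 in WT. The part of neighboring tissue in the Foxp2 difference was not tested.

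The other members had smaller negative LFCs and did not pass in the main test. Calb1 (chr4:15881264-15908064, plus strand) encodes calbindin, the main calcium buffer of Purkinje cells. It had 38861, 48786 and 45366 normalized counts in WT libraries 2, 4 and 6 and 34696, 38569 and 34611 in SCA1 KI libraries 1, 3 and 5. WT library 2 was only just above SCA1 KI library 3, and the LFC was −0.30 (SE 0.12, adjusted p = 0.187). Car8 (chr4:8143362-8239041, minus strand) encodes a carbonic anhydrase-related protein without catalytic activity that binds the IP3 receptor. Its 75721 normalized counts in WT library 2 fell within the SCA1 KI range of 68038 to 77037, while WT libraries 4 and 6 were at 97575 and 89921 (LFC −0.29, SE 0.14, adjusted p = 0.328). Without WT library 2 the LFCs of Calb1 and Car8 were −0.39 and −0.39, and neither passed.

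Ppp1r17 (chr6:56017497-56032689, plus strand) encodes G-substrate, a target of cGMP-dependent kinase that inhibits protein phosphatases. It ran from 8614 to 10837 normalized counts in WT and from 7764 to 8532 in SCA1 KI libraries, with an LFC of −0.28 (adjusted p = 0.844). Pcp2 (chr8:3623371-3625545, minus strand) encodes a modulator of Gi and Go proteins, and its exons overlap those of Pet100 on the other strand. WT libraries 2, 4 and 6 had 9414, 10742 and 10249 normalized counts of Pcp2, and SCA1 KI libraries 1, 3 and 5 had 7789.9, 8031 and 7439. The groups were clearly apart, with 10135 ± 671 against 7753 ± 297 (SD, n = 3 each).

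The LFC of Pcp2 was −0.38, yet its SE was 0.86 and its adjusted p 0.884, because the fit shares 1 estimate of spread with the cortical libraries, where Pcp2 ran from 0 to 28.5 normalized counts. With the cerebellar libraries fitted on their own, the SE was 0.057 and Pcp2 passed (adjusted p = 0.0120). The same alternative took the SE of Lhx5 from 0.72 to 0.092 and its adjusted p to 0.0489, so that 5 members passed (Aldoc, Gng13, Foxp2, Pcp2 and Lhx5). In that fit 618 of all 15369 tested genes passed as lower and 220 as higher. Ppp1r17 and Lhx1 had the same wide SEs (0.48 and 0.70) and, fitted on the cerebellum alone, adjusted p of 0.0937 and 0.401.

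Slc1a6 (chr10:78780496-78814765, plus strand) encodes EAAT4, the glutamate transporter of Purkinje dendrites and spines. WT libraries 2, 4 and 6 had 6012, 6888 and 7220.5 normalized counts, and SCA1 KI libraries 1, 3 and 5 had 5668, 5396 and 5287. The groups were apart, and the LFC was −0.30 (SE 0.089, adjusted p = 0.0820), just outside the threshold. It passed with DESeq2 (adjusted p = 0.00910), without WT library 2 (LFC −0.37, adjusted p = 0.0448) and without WT cortex library B (adjusted p = 0.0347).

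Lhx1 (chr11:84518284-84525535, minus strand) and Lhx5 (chr5:120431699-120441223, plus strand, with exons overlapping Gm27199 on the other strand) encode LIM homeodomain factors needed together for Purkinje cell differentiation. Lhx1 had 1527, 1816 and 1992 normalized counts in WT libraries 2, 4 and 6 and 1669.9, 1511 and 1618 in SCA1 KI libraries 1, 3 and 5. WT library 2 lay inside the SCA1 KI range, and the LFC of −0.15 was the smallest of the 10 (adjusted p = 0.955). Lhx5 had 572, 646 and 681 normalized counts in WT against 522, 477 and 443 in SCA1 KI libraries, in the same library order. Its groups were apart by a narrow margin, and the LFC was −0.40 (adjusted p = 0.855).

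**Figure D3:**
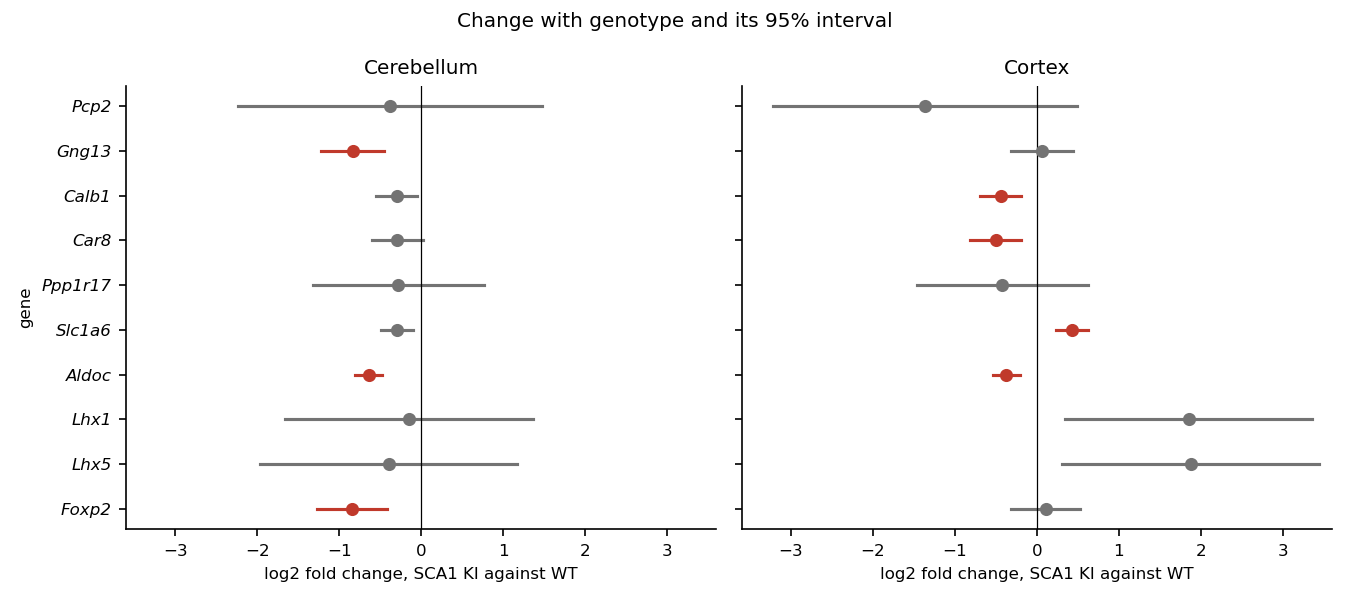
LFC of SCA1 KI against WT for each member in the cerebellum (left) and the cortex (right), with 95% intervals from limma fitted on all 12 libraries; red marks genes that passed. In the cerebellum all points lie left of 0 and Aldoc, Gng13 and Foxp2 are red, and the widest intervals belong to genes near 0 counts in the cortex.

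To show the members against each other, Gng13, Foxp2 and Aldoc were divided by the geometric mean of the other 7 members in the same library. These 3 were picked after their values were seen, so the ratios are a description with no test. For Gng13 the ratio was 0.519 ± 0.010 in WT and 0.358 ± 0.028 in SCA1 KI libraries, with SD and n = 3 here and below. Foxp2 went from 0.135 ± 0.028 to 0.0913 ± 0.0089, and Aldoc from 7.69 ± 0.86 to 6.05 ± 0.19. In each case the 2 groups were apart. Gng13 in WT was steady within 0.507 to 0.527, so its lower count in WT library 2 went along with lower counts of the other members there.

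**Figure D4:**
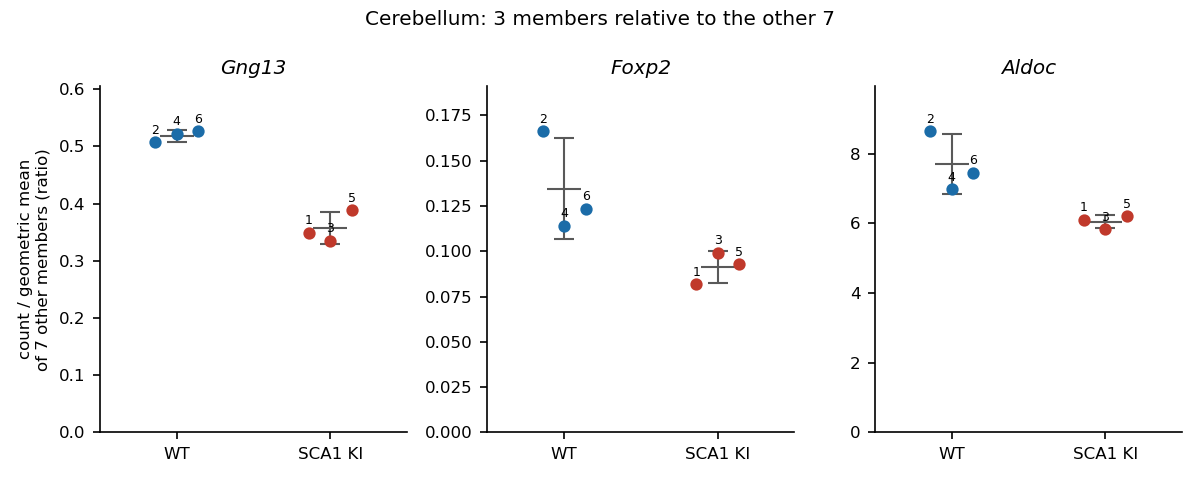
Ratio of Gng13, Foxp2 and Aldoc to the geometric mean of the 7 other members in each cerebellar library, with mean and SD of 3 libraries per group. The SCA1 KI points lie below the WT points in all 3 panels, and library 2 has the highest WT ratio for Foxp2 and Aldoc.

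The other markers of the cerebellum put these values in context. A further 19 Purkinje-enriched genes had a median LFC of −0.35, with 6 lower, 0 higher and 13 that did not pass. Among the 6 were the calmodulin-binding Pcp4 (LFC −0.68), Fam107b (−0.69), the RGS protein Rgs8 (−0.62), Icmt (−0.42) and the scaffold Homer3 (−0.37). For the 0 higher, limma had 0 at an unadjusted p under 0.05 as well, and so did edgeR and DESeq2 among their calls. Of 9 other Purkinje transcription factors and LIM cofactors, Ldb2, a LIM-domain-binding cofactor, was lower (LFC −2.13) and 8 did not pass. Ldb2 had 540, 237 and 306 normalized counts in WT libraries 2, 4 and 6 and 62.5 to 91.0 in SCA1 KI libraries. WT library 2 was highest, as for the summed midbrain and diencephalon markers.

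Stripe genes of the zebrin pattern were read next. Among 6 zebrin II-positive genes, a list that includes Slc1a6, Plcb3 (LFC −0.90) and Kctd12 (−0.73) were lower. With edgeR 2 of these 6 were lower and with DESeq2 4, and 0 were higher with either. Of 4 zebrin II-negative genes, 1 passed as lower with limma and 2 each with edgeR and DESeq2. At an unadjusted p under 0.05 by limma, the positive list had 4 lower and 1 higher, and the negative list 3 lower and 0 higher. The median LFCs of the positive and negative lists were −0.29 and −0.34. Markers of other cerebellar neurons had no lower call. For 10 granule cell markers limma made 0 calls (median LFC 0.19), with 2 higher and 0 lower at an unadjusted p under 0.05, 0 calls with edgeR and 1 higher each with DESeq2 and with the cerebellum fitted on its own. For 10 interneuron markers there were 0 calls by limma, edgeR or DESeq2 and 0 at an unadjusted p under 0.05, and 1 was higher with the cerebellum fitted on its own. The median LFC of the interneuron markers was −0.09, with 7 of 10 negative. Their summed level was 31039 to 35917 normalized counts in WT and 40704 to 41830 in SCA1 KI libraries. That higher sum rests on 1 gene, Calb2 (calretinin), singled out after its values were seen. Calb2 had 12886 ± 1969 normalized counts in WT and 21264 ± 685 in SCA1 KI libraries (SD, n = 3 each), which did not overlap. Its LFC of 0.73 did not pass in the main test (adjusted p = 0.462 from limma). That fit shares its spread with the cortical libraries, where Calb2 ran from 340 to 2000 normalized counts in SCA1 KI. Calb2 was the 1 interneuron marker that passed as higher with the cerebellum fitted on its own. Striatal markers (2 of 9 lower, Six3 and Tac1) and cortical excitatory markers (1 of 9 higher, Tbr1, and 2 lower, Bcl11b and Rorb) were also checked.

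In the cortex, where no Purkinje cells are present, 4 members passed. Aldoc, Calb1 and Car8 were lower in SCA1 KI mice and Slc1a6 was higher. The background was 10.8% lower and 4.82% higher over all tested genes. The same 4 were the members whose libraries did not overlap, 3 lower and 1 higher, beside 18% and 13% of all tested genes. The median LFC of the members was −0.16, with 5 of 10 negative, beside a median of −0.0028 over all tested genes.

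**Figure D5:**
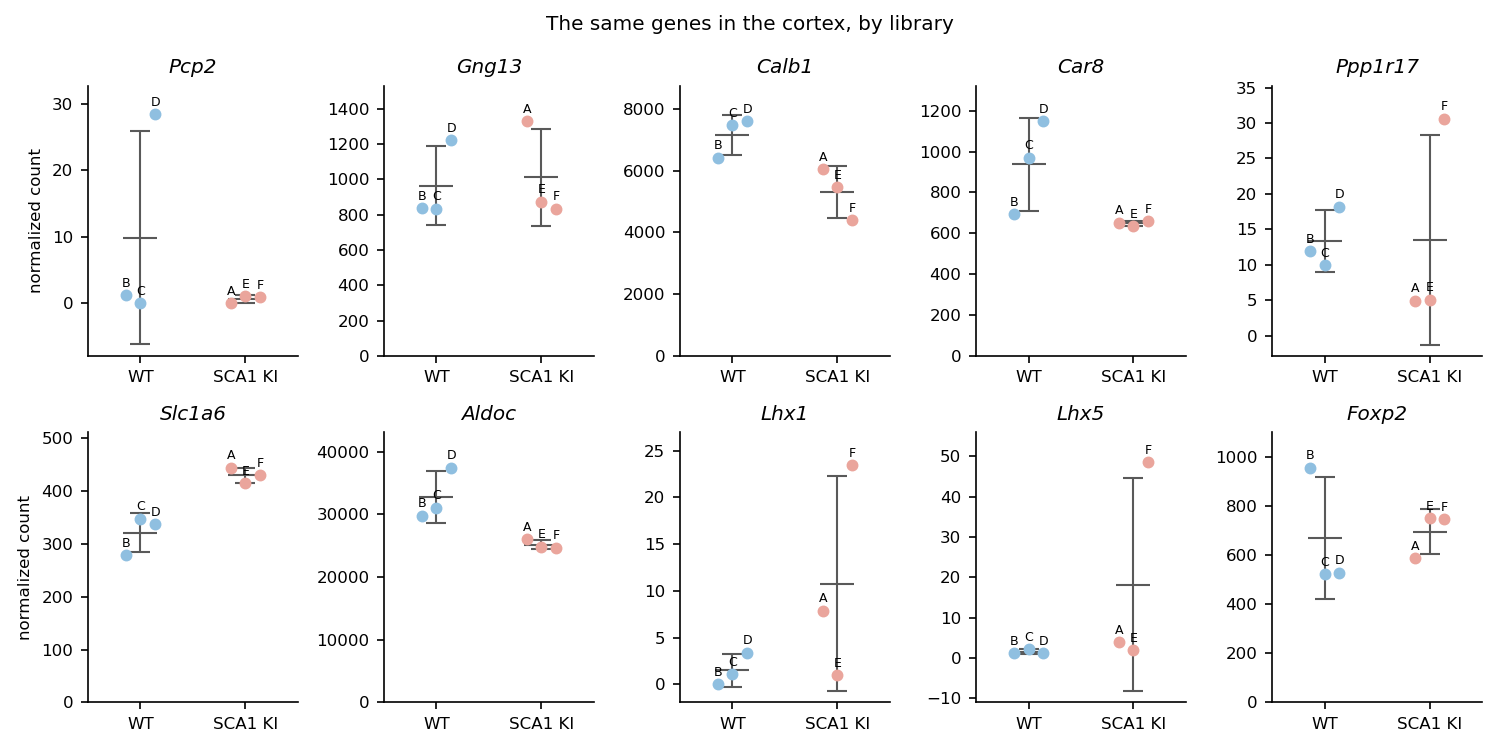
Normalized counts of the 10 members in the cortex, drawn as for the cerebellum, with column letters and an axis of its own per gene. Aldoc, Calb1 and Car8 are lower and Slc1a6 higher in SCA1 KI libraries, and single libraries set the means of Pcp2 (WT D) and of Ppp1r17, Lhx1 and Lhx5 (SCA1 KI F).

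Aldoc in the cortex had 29772, 31055 and 37423 normalized counts in WT libraries B, C and D and 25991, 24822 and 24659 in SCA1 KI libraries A, E and F. No libraries overlapped, and the LFC was −0.37 (SE 0.076, adjusted p = 0.00455 from limma). It passed under all 21 alternatives that kept the LFC limit of 0.25, and not with a limit of 1, with LFCs from −0.44 to −0.27, the last without WT library D. Astrocyte markers went the same way, with 8 of 13 lower, including Slc1a2 (−0.81), Slc1a3 (−0.48) and Aldh1l1 (−0.57). Their summed level was 328881 to 338235 normalized counts in WT and 171615 to 246115 in SCA1 KI libraries, and their part in the Aldoc difference was not tested.

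Calb1 had 6423, 7471 and 7602 normalized counts in WT libraries B, C and D and 6058, 5459 and 4401 in SCA1 KI libraries A, E and F (LFC −0.44, SE 0.12, adjusted p = 0.0190). The call was lost without WT library C, WT library D or SCA1 KI library F (adjusted p = 0.0713, 0.0615 and 0.0663). Car8 had 695, 969.9 and 1149 normalized counts in WT and 651, 634 and 660.4 in SCA1 KI libraries, in the same order. WT library B was barely above the SCA1 KI range. The LFC of Car8 was −0.50 (SE 0.14, adjusted p = 0.0306), and it did not pass with the cortex fitted on its own (adjusted p = 0.0885) or without any 1 of SCA1 KI libraries A, E and F and WT libraries C and D. Without WT library D, which held granule cell transcripts, its LFC was −0.34 (adjusted p = 0.101).

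Slc1a6 went the other way from its cerebellar values. It had 279, 348 and 337 normalized counts in WT libraries B, C and D and 444, 415 and 431 in SCA1 KI libraries A, E and F. All SCA1 KI libraries were above all WT libraries (LFC 0.43, SE 0.089, adjusted p = 0.00555). With the cortex fitted on its own its adjusted p was 0.0509. Gng13 and Foxp2, which were lower in the cerebellum, had overlapping cortical groups. Gng13 was between 833 and 1220.5 normalized counts in WT and between 834 and 1328 in SCA1 KI libraries (LFC 0.06, 95% interval −0.32 to 0.44). Foxp2 was between 523 and 955 in WT and between 588 and 749.9 in SCA1 KI libraries (LFC 0.11, 95% interval −0.32 to 0.53). The highest Foxp2 value was in WT library B, where striatal markers summed to 15875 normalized counts against 5462 to 9420.1 in the other cortical libraries.

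The remaining 4 members were at a few reads in the cortex, and leaving out 1 library moved the LFC of each. Pcp2 had 28.5 normalized counts (25 reads) in WT library D and 0 to 1.19 in the other 5. Without library D its LFC went from −1.36 to 0.08, and neither value passed. With DESeq2 and all libraries its LFC was −3.95 and passed (adjusted p = 0.0499). Lhx1 had 0, 1.11 and 3.42 normalized counts in WT libraries B, C and D and 7.88, 1.01 and 23.4 in SCA1 KI libraries A, E and F. Lhx5 had 1.19, 2.21 and 1.14 in WT and 3.94, 2.02 and 48.7 in SCA1 KI libraries, again highest in F.

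Their LFCs of 1.85 and 1.87 did not pass (adjusted p = 0.0891 and 0.0971), and without SCA1 KI library F they were 1.01 and 0.65. Both passed with DESeq2 (adjusted p = 0.0318 and 0.0141). Leaving out SCA1 KI library E gave adjusted p of 0.00327 and 0.0183, and Lhx1 also passed without WT library D (adjusted p = 0.0467). Ppp1r17 had 11.9, 9.96 and 18.2 normalized counts in WT and 4.93, 5.06 and 30.6 in SCA1 KI libraries. Its LFC was −0.42 (adjusted p = 0.604), and without library F it was −1.22 and passed (adjusted p = 0.00139). Midbrain and diencephalon markers had 4 of 14 higher and none lower in the SCA1 KI cortex, Pou4f1, Shox2, Tal1 and En1. Shox2 and Barhl1 were at 0 in every WT cortex library. The list summed to 1989 to 2469 normalized counts in WT, 3308 and 3101 in SCA1 KI libraries A and E and 4704 in library F. The part of neighboring tissue in these 4 members was not tested.

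The other lists were read in the cortex as well. Of the 19 Purkinje-enriched genes 9 were lower and 0 higher, among them Itpka (LFC −1.39) and Rgs8 (−1.04). No gene of that list was higher at an unadjusted p under 0.05 or by edgeR or DESeq2. All 4 zebrin II-negative genes were lower, and the zebrin II-positive list had Ncs1 lower and Slc1a6 higher. Rora, Foxp1 and Esrrb were lower among the 9 transcription factors and cofactors. Granule cell markers had 1 of 10 lower (Slc17a7, which cortical neurons also use), interneuron markers had 4 lower and Pax2 higher, striatal markers had Ppp1r1b lower, and cortical excitatory markers had Cux2 and Rorb lower.

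The difference between the 2 regions was tested as an interaction, the cortical LFC minus the cerebellar LFC. It passed at an adjusted p under 0.05 for 2 of 10 members, Slc1a6 and Gng13, beside 8.15% of all tested genes. For Slc1a6 the difference was 0.72 (SE 0.13, adjusted p = 0.00419), from a cerebellar LFC of −0.30 and a cortical LFC of 0.43. For Gng13 it was 0.90 (SE 0.25, adjusted p = 0.0436). The Slc1a6 difference passed under all 19 alternatives and that of Gng13 under 11. Foxp2 had a difference of a like size, 0.95 (SE 0.28, adjusted p = 0.0536), which did not pass. It passed with DESeq2 (adjusted p = 0.0189), with length and GC trends removed from each library (0.0278) and without WT cortex library B (0.00228) or SCA1 KI cortex library A (0.0414). For Aldoc, which was lower in both regions, the difference was 0.27 (95% interval 0.035 to 0.50, adjusted p = 0.166), and without WT cortex library D it was 0.37 and passed (adjusted p = 0.0173). The differences for Calb1 (−0.14, 95% interval −0.50 to 0.21) and Car8 (−0.21, 95% interval −0.65 to 0.23) did not pass. Among the members at a few reads in the cortex, Ppp1r17 passed without SCA1 KI cortex library F (−0.94, adjusted p = 0.0459) and Lhx1 without SCA1 KI cortex library E (2.95, adjusted p = 0.0220), and neither passed with all libraries.

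The genes with the pattern most like the members were found by correlation, as a description. Over all 12 libraries the mean log2 level of the members was matched most closely by Arhgef33, Svep1, Plekhd1, Dbi and Nipal2, with Pearson's r from 0.997 to 0.999. These points share their region, which sets most of the range. Arhgef33, which is also on the list of Purkinje-enriched genes, had cerebellar normalized counts of 8133 ± 838 for WT and 5839 ± 307 for SCA1 KI libraries (SD, n = 3 each), and cortical means of 37.3 and 41.0. Over the 6 cerebellar libraries the mean of the standardized members was matched most closely by Papd7, Tspan11, Inpp4a, Stap2 and Prmt8, with r from 0.997 to 0.998 over points that share the genotype split. Of these 5, Stap2 (LFC −0.86, adjusted p = 0.0170) and Prmt8 (LFC −0.37, adjusted p = 0.00854) passed in the cerebellum, and Papd7 had an LFC of −0.07.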

How the data were processed

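Whole cerebella and cortices were dissected, and poly-A RNA was sequenced in 75 bp paired-end reads. Per the labels, processing by the authors named STAR, featureCounts, DESeq2 and mm10, with no versions. The authors deposited 1 table of counts divided by DESeq2 size factors, so its values are a signal per gene and not raw counts. Dividing by the smallest steps gave whole reads for 100% of values in each of the 12 libraries (tolerance 0.01), with 29520855 to 51311309 reads on genes. Library depth limits the precision of members at a few reads, and a floor of 3 reads was used for folds. Such floors cover counting error only. Coordinates, exon overlaps and lengths are from GENCODE vM21 on GRCm38.

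For the main test, log2(normalized count + 1) was fitted with limma 3.58.1 (trend, 4 group means, 12 libraries) on 15369 genes with a mean of at least 10. Genes passed when the absolute LFC exceeded 0.25 and the p adjusted by Benjamini-Hochberg was under 0.05, with no LFC limit for the interaction. All adjusted p-values in the text are over all genes tested. Alternatives were edgeR 4.0.16 (quasi-likelihood, TMM) and DESeq2 1.42.0 on the recovered reads, other pseudocounts (0.5 and 5), filters (none, or a mean of 100), scalings, LFC limits, each region on its own, removal of a length and GC trend, and each library left out. The test was tried on simulated data with 200 changed genes.

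The named genes are all 10 members, examples from the genes of the lists that passed, and the 5 closest genes by correlation. The members and lists were chosen with earlier results of these data known. The lists were other Purkinje-enriched genes, Purkinje transcription factors and cofactors, zebrin II-positive and zebrin II-negative genes, granule cell, interneuron, astrocyte, midbrain, striatal and cortical excitatory markers. Among the listed genes, Foxa1, Slc6a3 and Drd1 were not tested. Results of some listed genes are not reported here.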

Additional observations from a re-analysis of the deposited data

Results flagged for a closer look

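Gng13 and Slc1a6 are listed because the effect of genotype differed between the 2 regions by a test of the difference itself. For Gng13 the cortical LFC minus the cerebellar LFC was 0.90 (adjusted p = 0.0436 from limma), with LFCs of 0.06 in the cortex and −0.84 in the cerebellum. In 8 of the 12 fits that left out 1 library it did not pass, those without SCA1 KI cerebellum library 1, 3 or 5, WT cerebellum library 4 or 6, SCA1 KI cortex library A or WT cortex library B or C (adjusted p = 0.0565 to 0.111, differences 0.69 to 0.94). For Slc1a6 the difference was 0.72 (adjusted p = 0.00419 from limma), with LFCs of 0.43 and −0.30. All 3 cortical SCA1 KI libraries were higher than all 3 WT libraries, and all 3 cerebellar SCA1 KI libraries were lower.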

How the results depend on the processing

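The direction of every member that passed was kept under all alternatives run. Over 40 member results and their 800 alternatives, 756 stayed on the same side of the threshold, 19 newly passed and 25 no longer passed. The number of members that passed in the cerebellum, 3 with all libraries, was 5 with each region fitted on its own and 0 with a limit of 1 on the absolute LFC, and 1 to 4 with 1 library left out. It was 1 without SCA1 KI cerebellum library 1 or WT cerebellum library 6. Without WT cerebellum library 2 it was 3, with Slc1a6 in and Foxp2 out. In the cortex the number, 4 in the main test, was 2 with each region fitted on its own, 7 with DESeq2 (3 higher and 4 lower), 0 with a limit of 1 and 2 to 5 with 1 library left out. It was 2 without WT cortex library C and 3 without WT cortex library D or SCA1 KI cortex library F. Over all 15369 tested genes in the cortex, DESeq2 had 816 higher and 1844 lower. With the cortex fitted on its own, 393 were higher and 1326 lower. In the region comparison the number of members that passed was 10 in every fit that left out a library and 8 with a limit of 1. For the interaction, 2 in the main test, it was 3 with DESeq2, 3 with the length and GC trend removed and 1 to 3 with 1 library left out. The counts of 0 under the limit of 1 come from limma, by which no member that passed had an absolute LFC over 1 in either genotype comparison. Leaving out a library left that group with 2. Except where the spread shared with near-zero cortical libraries widened the SEs, the cause of these changes was not tested. Pcp2, Lhx1, Lhx5 and Ppp1r17 were at 0 to 54 reads in the cortex. Their highest values lay in single libraries, WT cortex D for Pcp2 and SCA1 KI cortex F for the others. No paired analysis was possible because the columns carry numbers and letters that are not the replicate numbers of the labels.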
